A study of Mus musculus with 34 samples.

Results

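The glucocorticoid receptor gene Nr3c1 and 8 classical target genes of the receptor were followed in mouse blood. The 9 genes were chosen by symbol: Nr3c1, Tsc22d3, Fkbp5, Dusp1, Sgk1, Klf9, Ddit4, Zbtb16 and Fbxo32. Each symbol matched 1 of the 54532 gene IDs in the count tables, and all 9 passed the filter on low counts in every comparison. Messenger RNA was sequenced from the blood of wild-type mice in 4 groups: 9 mice given phosphate-buffered saline (PBS), 10 given ALY688, 4 given lipopolysaccharide (LPS) and 7 given ALY688 together with LPS. ALY688 is an agonist of the adiponectin receptors, and LPS is a cell wall component of Gram-negative bacteria that sets off inflammation. The sources used here do not give doses, sampling times, strain, sex, age or the route of injection, and each replicate is a numbered mouse. The study's text describes the mice without LPS and those with LPS as separate pieces of work, speaking of plasma for the former and whole blood for the latter, although each sample is labelled blood. For that reason the effect of LPS and any difference between the experiments cannot be told apart.

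Glucocorticoids are adrenal steroids that circulate at levels set by the time of day and by stress, and that rise during infection. The receptor rests in the cytoplasm in a complex with heat shock protein 90 and co-chaperones, moves to the nucleus when it binds the hormone, and switches on genes near the sequence it recognises, the glucocorticoid response element. It also restrains inflammatory transcription in white blood cells. Fkbp5 encodes a co-chaperone that lowers the receptor's affinity for the hormone and so closes a feedback loop. Tsc22d3, also called GILZ, and Dusp1, a phosphatase of MAP kinases, are anti-inflammatory targets. Sgk1 is a kinase that regulates ion transport, Klf9 and Zbtb16 are transcription factors, Ddit4 (REDD1) inhibits mTORC1, and Fbxo32 (atrogin-1) is a ubiquitin ligase known from muscle wasting.

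The response element was searched in the 250 bases before each annotated start site, on both strands, in 2 forms. The first is the 15-base palindrome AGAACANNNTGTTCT. The other is its 6-base arm AGAACA, which is also part of the palindrome. The windows are from RefSeq on GRCm38.p6. They covered 6 of the 9 genes with 13 start sites, and Nr3c1, Zbtb16 and Fbxo32 had none. The palindrome stood in 3 of 32851 windows (0.00913%), and 1 of these belongs to Sgk1. It lay 189 to 175 bases before a start site at position 21993890 of chromosome 10, within an intron of the longer Sgk1 gene model. The arm stood in 16.1% of windows. Among the 6 genes it was found in 1 of the 3 windows of Tsc22d3 and in 3 of the 6 windows of Sgk1. No match was found in the windows of Fkbp5, Dusp1, Klf9 and Ddit4, 1 for each gene, which says only that these letters are not in these windows. A gene with more windows had more room for a match. The 3 stretches below are shown because Sgk1 and Tsc22d3 are the genes with a match. Sgk1 had 5 arm matches in all, those within the palindrome among them, and not all are printed. Under LPS Sgk1 rose and Tsc22d3 did not pass, while Fkbp5 and Klf9 rose without a match. A link between a match and the response to LPS was not tested. Capitals mark the matched letters, and each is printed 5′ to 3′ on the strand of its gene.
Sgk1, palindrome, chr10:21993676-21993740, plus strand, intron: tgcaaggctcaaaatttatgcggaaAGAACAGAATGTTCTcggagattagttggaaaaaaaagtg
Sgk1, arm, chr10:21881964-21882019, plus strand, upstream of the gene model: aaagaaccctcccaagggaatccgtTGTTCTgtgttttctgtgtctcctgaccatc
Tsc22d3, arm, chrX:140600677-140600732, minus strand, upstream of the gene model: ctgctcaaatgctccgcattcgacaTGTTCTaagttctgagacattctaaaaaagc

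Libraries held 9554964 to 17338214 counts. Levels are given as CPM (counts scaled to a common library size) after TMM scaling, which sets all 30 libraries on 1 scale, and 3 counts of a library stood at 0.0688 to 0.904 CPM on it. The share of counts from globin genes was 45.1% to 64.3% in PBS libraries, 42.2% to 60.8% in ALY688 libraries, 18.4% to 43.7% in LPS libraries and 26.3% to 54.3% where mice had received both. The shares of PBS and LPS libraries did not overlap. In fits of LPS against PBS with the globin percentage as a covariate, that share and LPS can therefore hardly be told apart. Fewer than 16000 genes had a count in PBS mice 5, 6 and 9, ALY688 mouse 7, and ALY688+LPS mice 6 and 8. Markers of every blood cell type examined were detected. The summed level of 10 neutrophil markers was 836 to 2356 CPM with PBS and 776 to 1641 with ALY688, against 4230 to 14369 with LPS and 5788 to 13475 with both. The 7 B cell markers summed to 815 to 2539 and 1078 to 2313 CPM without LPS, and to 150.2 to 398.6 and 213 to 920.3 with it.

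Under LPS, 4 of the 9 genes rose against PBS and 1 fell. Those that rose were Nr3c1, Fkbp5, Sgk1 and Klf9, by 1.58-fold, 5.97-fold, 2.04-fold and 2.01-fold, and Fbxo32 fell 6.14-fold. In mice that had also received ALY688, the same 5 genes passed in the same direction and Dusp1 rose as well, so that 5 rose and 1 fell against ALY688 alone. Tsc22d3, Ddit4 and Zbtb16 did not pass in either comparison. A gene passed at an adjusted p below 0.05 in edgeR's quasi-likelihood test with Benjamini-Hochberg adjustment over all genes. That test is the source of every adjusted p here, apart from the value given for Tef in DESeq2. Of all genes tested, 38.7% passed for LPS against PBS (20.9% rose and 17.9% fell) and 53.0% for ALY688+LPS against ALY688 (26.4% rose and 26.6% fell). The median log2 fold change of the 9 genes was 0.66 in both comparisons, against −0.04 and −0.05 over all genes tested. Without the libraries of few detected genes, 5 of the 9 rose and 2 fell against PBS, and 6 rose and 1 fell against ALY688.

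**Figure D1:**
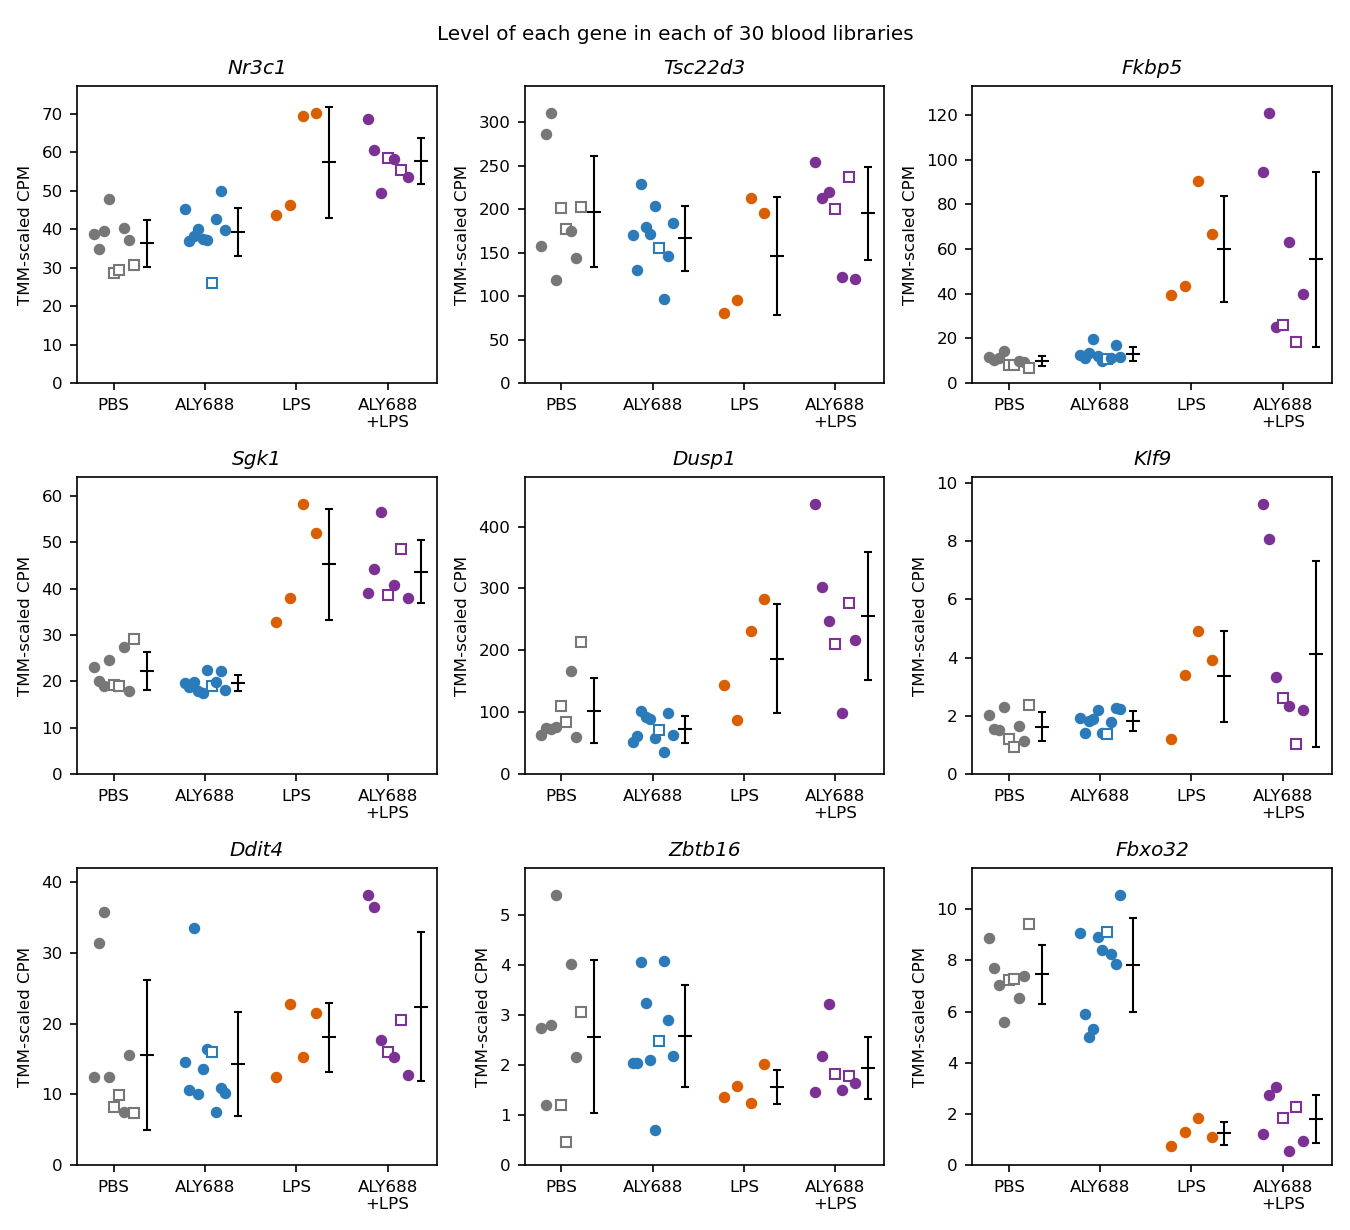
Level of each of the 9 genes in TMM-scaled CPM (linear axis from 0) in 30 blood libraries, by group. Filled circles are libraries, open squares those with fewer than 16000 genes with a count, and the black bar is the mean with its SD; Fkbp5 and Sgk1 stand higher and Fbxo32 lower in every LPS library than in any PBS library, while Tsc22d3, Ddit4 and Zbtb16 overlap throughout.

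The receptor itself, Nr3c1 (ENSMUSG00000024431, chromosome 18, 39410545 to 39519421, minus strand on GRCm38), was detected in every library with at least 94 counts. With PBS it ran from 28.6 to 47.8 CPM with a median of 37.2, and with ALY688 from 25.95 to 49.98 with a median of 38.9. The LPS mice 2, 6, 7 and 8 held 43.7, 46.2, 69.5 and 70.2 CPM. Mice given both agents ran from 49.3 to 68.7 with a median of 58.2. LPS mice 2 and 6 lay within the PBS range and mice 7 and 8 above it, and in mice with both agents only mouse 4 fell within the range of ALY688 alone. The mean rose from 36.3 ± 6.18 (SD, n = 9) to 57.4 ± 14.4 (n = 4), a log2 fold change of 0.66 ± 0.18 (SE; adjusted p = 0.00900). Against ALY688 it rose from 39.4 ± 6.26 (n = 10) to 57.8 ± 6.09 (n = 7), by 0.55 ± 0.10 (adjusted p = 0.000160). The first of these calls was lost with the globin percentage as a covariate, where the value was not smaller but its SE was wider (0.80 ± 0.34, adjusted p = 0.0878). The second was lost when only library totals were used for scaling (0.63, adjusted p = 0.185). Neutrophil markers rose in 9 of 10 genes in both comparisons, with summed ranges that did not overlap, while 7 of 8 T cell markers and 7 of 7 B cell markers fell against PBS, and 8 of 8 and 7 of 7 against ALY688. NK cell markers rose in 5 of 7 genes against PBS, with sums of 88.6 to 302 CPM with PBS and 381 to 642 with LPS, and in 2 of 7 against ALY688. Of 8 monocyte markers, 4 rose and 1 fell in both comparisons. Platelet markers fell in 3 of 7 genes against PBS and in none against ALY688, and of 8 red cell markers 1 fell against PBS and 1 rose against ALY688. The part of these cell types in the changes of any of the 9 genes was not tested. In whole blood, a change in the number of cells of a type and a change of RNA per cell cannot be told apart.

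Fkbp5, the co-chaperone of the feedback loop (ENSMUSG00000024222, chromosome 17, 28399094 to 28517527, minus strand), had the largest rise of the 9 against PBS. It ran from 6.59 to 14.1 CPM with PBS (median 9.84) and from 9.74 to 19.8 with ALY688 (median 11.8). LPS mice 2, 6, 7 and 8 held 39.4, 43.4, 90.5 and 66.5 CPM. Every LPS mouse exceeded every PBS mouse, so the ranges did not overlap. The 7 mice with both agents, numbers 1, 3, 4, 6, 7, 8 and 10, held 94.2, 120.8, 24.99, 25.9, 63.0, 18.3 and 39.7 CPM. Their spread was the widest of the 4 groups, 6.61-fold from lowest to highest, and mouse 8 fell just within the range of ALY688 alone. The log2 fold change was 2.58 ± 0.22 against PBS (9.94 ± 2.22 to 59.9 ± 23.6 CPM; adjusted p = 3.98e-07). Against ALY688 it was 2.10 ± 0.32 (12.9 ± 3.10 to 55.3 ± 39.3 CPM; adjusted p = 2.81e-05). The latter became 1.45 with the globin percentage as a covariate and 1.84 under the replicate block on mouse numbers, below the 1.79 and 1.88 of Dusp1 in those fits.

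Sgk1, the kinase with the palindrome shown above (ENSMUSG00000019970, chromosome 10, 21882184 to 21999903, plus strand), rose in both comparisons. Its levels were 18.0 to 29.2 CPM with PBS (median 20.1) and 17.4 to 22.5 with ALY688 (median 19.4). In the LPS group (mice 2, 6, 7 and 8) they were 32.7, 37.9, 58.3 and 52.1 CPM, and with both agents 38.0 to 56.7 (median 40.9). No mouse with LPS overlapped any mouse without it. Sgk1 rose by a log2 fold change of 1.03 ± 0.18 against PBS (adjusted p = 0.000294) and of 1.16 ± 0.09 against ALY688 (adjusted p = 2.81e-09). Its call held in both comparisons under every alternative run and without any single mouse.

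Tsc22d3 (ENSMUSG00000031431, chromosome X, 140539528 to 140600659, minus strand), which encodes an inhibitor of NF-kB and AP-1, did not follow Fkbp5. It ran from 118 to 311 CPM with PBS (median 177) and from 96.5 to 229 with ALY688 (median 171). With LPS, mice 2, 6, 7 and 8 held 80.5, 95.1, 213 and 196 CPM, and mice with both agents ran from 120.3 to 255 (median 213). LPS mice 2 and 6 lay below every PBS mouse and mice 7 and 8 within the PBS range. The log2 fold change was −0.43 ± 0.33 against PBS (95% interval −1.12 to 0.27, adjusted p = 0.322) and 0.23 ± 0.19 against ALY688 (−0.16 to 0.62, adjusted p = 0.316). These intervals leave room for a fold of 2.18 downward in the former and 1.54 upward in the latter.

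Dusp1, the MAP kinase phosphatase (ENSMUSG00000024190, chromosome 17, 26505590 to 26562128, minus strand), rose in mice with both agents. With PBS it ran from 59.9 to 214 CPM (median 76.7), where mice 7 and 9 held 166 and 214 and the other 7 at most 109. With ALY688 the range was 35.7 to 102 CPM (median 66.7). LPS mice 2, 6, 7 and 8 held 144, 87.0, 232 and 283 CPM, and mice with both agents ran from 98.5 to 436.5 (median 247), with mouse 7 alone inside the range of ALY688. The log2 fold change against ALY688 was 1.83 ± 0.25 (72.1 ± 22.2 to 255 ± 103 CPM; adjusted p = 4.07e-06). Against PBS it was 0.87 ± 0.36 and missed the threshold (102 ± 52.9 to 186 ± 87.7 CPM; adjusted p = 0.0687). It passed there without PBS mouse 7 (0.99, adjusted p = 0.0447), without PBS mouse 9 (1.08, 0.0135), without LPS mouse 6 (1.14, 0.0291) and without the libraries of few detected genes (1.09, 0.0229). It also passed with the globin percentage as a covariate (2.04, adjusted p = 0.0301), with all 4 groups in the fit (0.87, 0.0357), with no filter on low counts (0.998, 0.0241) and with library totals alone (1.97, 8.84e-05). The gene model overlaps the start of Ergic1 on the other strand, which had 10042 counts over all libraries against 61762 for Dusp1. No source used here gives the strand setting of the counting, so reads from the overlap cannot be assigned.

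The transcription factor genes were the lowest of the group in counts. Klf9 (ENSMUSG00000033863, chromosome 19, 23141226 to 23168134, plus strand) ran from 0.939 to 2.35 CPM with PBS (median 1.56) and from 1.38 to 2.28 with ALY688 (median 1.85). The LPS mice 2, 6, 7 and 8 held 1.21, 3.40, 4.91 and 3.91 CPM, and the 7 mice with both agents, in the order of their numbers, 9.28, 8.06, 3.34, 2.62, 2.34, 1.02 and 2.20. LPS mouse 2 lay within the PBS range and the other 3 above it, and mice 1 and 3 with both agents stood far above the rest. Klf9 rose by a log2 fold change of 1.01 ± 0.33 against PBS (adjusted p = 0.0245) and of 1.21 ± 0.32 against ALY688 (adjusted p = 0.00347). The former was lost without LPS mouse 7 (0.82, adjusted p = 0.0810) or LPS mouse 8 (0.94, 0.0746), and with the globin percentage as a covariate (1.36, adjusted p = 0.112). With that covariate the latter was lost too (0.63, adjusted p = 0.122).

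Zbtb16 (ENSMUSG00000066687, chromosome 9, 48654297 to 48836222, minus strand), known as PLZF and needed by innate-like T cells, ran from 0.470 to 5.41 CPM with PBS (median 2.75), where the lowest, mouse 6, had 2 counts. It ran from 0.700 to 4.09 CPM with ALY688 (median 2.33). LPS mice 2, 6, 7 and 8 held 1.37, 1.58, 1.25 and 2.02 CPM, and mice with both agents 1.45 to 3.22 (median 1.78). Groups overlapped throughout. The 4 LPS mice lay below the PBS median, as did the mice with both agents apart from mouse 4, at 3.22 CPM. Zbtb16 differed by a log2 fold change of −0.75 ± 0.43 from PBS (adjusted p = 0.179) and of −0.40 ± 0.28 from ALY688 (adjusted p = 0.240). Without the libraries of few detected genes it passed against PBS (−0.97, adjusted p = 0.0452).

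Ddit4, the mTORC1 inhibitor (ENSMUSG00000020108, chromosome 10, 59949669 to 59951834, minus strand), differed more among mice of a group than between groups. It ran from 7.30 to 35.8 CPM with PBS (median 12.4) and from 7.49 to 33.5 with ALY688 (median 12.2). With LPS, mice 2, 6, 7 and 8 held 12.5, 22.8, 15.3 and 21.6 CPM, and mice with both agents ran from 12.8 to 38.2 (median 17.6). All groups overlapped. The log2 fold change was 0.18 ± 0.40 against PBS (adjusted p = 0.752) and 0.66 ± 0.29 against ALY688 (adjusted p = 0.0652). The latter passed without ALY688 mouse 3 (0.89, adjusted p = 0.00400), without ALY688+LPS mouse 10 (0.76, 0.0449) and without the libraries of few detected genes (0.83, 0.0475).

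Fbxo32, the ubiquitin ligase (ENSMUSG00000022358, chromosome 15, 58175879 to 58214932, minus strand), was the only one of the 9 to fall. Its levels were 5.61 to 9.42 CPM with PBS (median 7.28) and 5.01 to 10.6 with ALY688 (median 8.32). LPS mice 2, 6, 7 and 8 held 0.726, 1.31, 1.83 and 1.08 CPM, and mice with both agents ran from 0.559 to 3.04 (median 1.83). No mouse with LPS reached the lowest mouse without it. The log2 fold change was −2.62 ± 0.25 against PBS (7.45 ± 1.15 to 1.24 ± 0.461 CPM; adjusted p = 1.59e-06) and −2.17 ± 0.29 against ALY688 (7.84 ± 1.83 to 1.80 ± 0.939 CPM; adjusted p = 3.76e-06). The myosins Myh4 and Myh1, which define skeletal muscle fibres, had no count in any library, which allows at most 0.173 to 0.314 CPM before TMM scaling. The summed level of 6 muscle markers was low, 3.76 to 7.77 CPM with PBS and 0.894 to 2.50 with LPS, and these ranges did not overlap either. That sum rested mainly on Mylpf, with a mean of 4.11 CPM with PBS and 1.30 with LPS. With PBS, Tnnt3 held 0.868 CPM, while Acta1 and Ckm stood at 0.183 and 0.0999. The B and T cell markers fell along with Fbxo32, and neither list's part was tested.

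**Figure D2:**
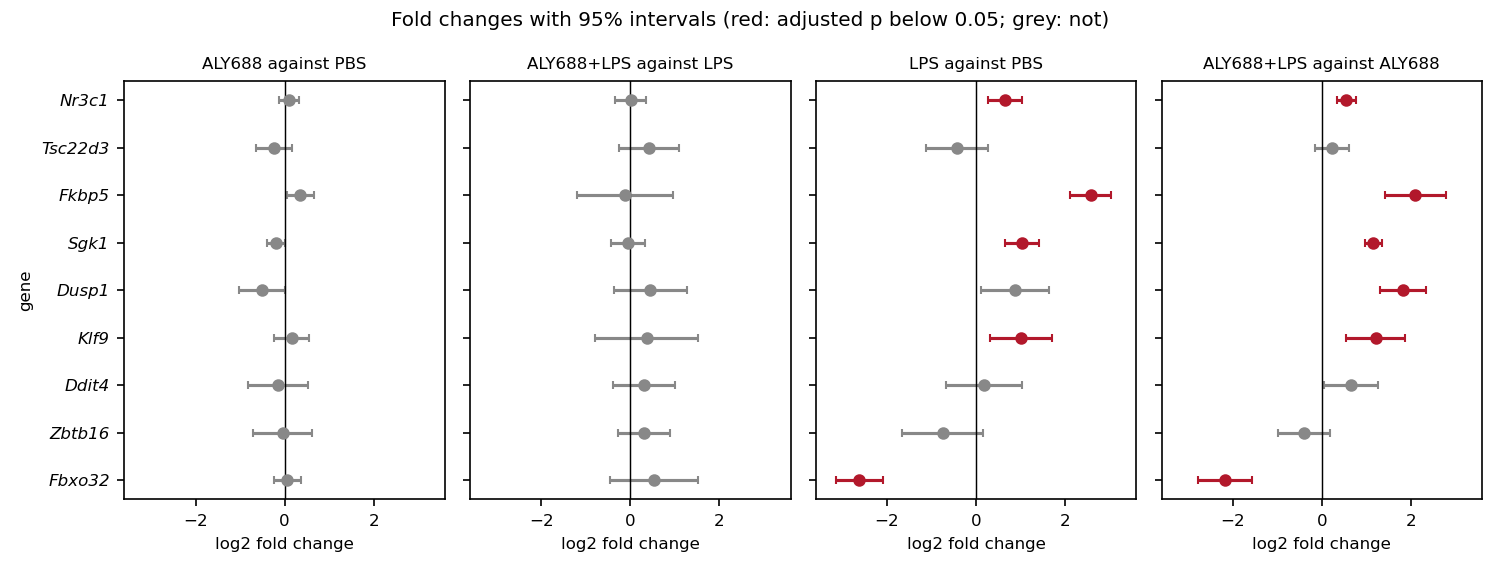
Log2 fold changes of the 9 genes (points) with 95% intervals (bars) in 4 comparisons, from edgeR. Red marks an adjusted p below 0.05 and grey the rest; the left 2 panels, for ALY688, hold no red point, and the right 2, for LPS, hold 5 and 6.

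Ranges that did not overlap were seen for 3 of the 9 genes with LPS against PBS (Fkbp5, Sgk1 and Fbxo32), against 19.1% of all genes tested, and for 2 with ALY688+LPS against ALY688 (Sgk1 and Fbxo32), against 19.2%. Under scaling by library totals alone the median of all genes in LPS against PBS stood at 1.04, and 95% of the calls were rises, against 53.9% after TMM. For ALY688+LPS against ALY688 the share of rises went from 49.8% to 60.5%. Relative to the shifted median of 1.04, Nr3c1 stood at 0.56, Fkbp5 at 2.40, Sgk1 at 1.01, Dusp1 at 0.92, Klf9 at 0.97 and Fbxo32 at −2.59 in LPS against PBS, and Tsc22d3 at −0.63.

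ALY688 was compared with PBS to ask which blood transcripts mark its action, and none of the 9 genes passed, with 0% of 11708 genes called. The gene with the smallest p was Fkbp5. Its log2 fold change was 0.36 ± 0.14 (95% interval 0.06 to 0.66; unadjusted p = 0.0211, adjusted p = 0.442), with means of 9.94 ± 2.22 CPM with PBS and 12.9 ± 3.10 with ALY688 and ranges that overlapped. Dusp1 stood at −0.51 ± 0.25 (−1.03 to 0.01) and Sgk1 at −0.19 ± 0.10 (−0.40 to 0.01), both at an adjusted p of 0.442. Nr3c1 differed by 0.10 ± 0.10 (−0.12 to 0.32, adjusted p = 0.672), which bounds a rise of the receptor's transcript at 1.25-fold under TMM scaling. With library totals alone Nr3c1 stood at 0.58, outside that interval, where the median of all genes stood at 0.50. Tsc22d3 stood at −0.25 ± 0.20 (−0.65 to 0.16, adjusted p = 0.570). The remaining 4 genes lay between −0.15 and 0.16, with the widest interval for Zbtb16 and Ddit4, −0.72 to 0.63 and −0.83 to 0.52. The count of 0 over all genes came with 1250 genes at an unadjusted p under 0.05, and DESeq2 also called 0, with 1645.

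In mice given LPS, the comparison with and without ALY688 asked about its anti-inflammatory action. None of the 9 genes passed (each adjusted p at least 0.913; 0% of 12741 genes called, with 463 at an unadjusted p under 0.05, and 0 by DESeq2 with 635). Groups overlapped for each of the 9, against 0.259% of all genes whose ranges did not overlap. The receptor's means were 57.4 ± 14.4 CPM with LPS and 57.8 ± 6.09 with both agents, a log2 difference of 0.01 ± 0.16 (95% interval −0.34 to 0.35). The intervals of the targets were wider. They ran from −1.20 to 0.96 for Fkbp5, from −0.80 to 1.53 for Klf9 and from −0.46 to 1.51 for Fbxo32, so that changes of 2-fold in at least 1 direction lay inside them. Sgk1 was bounded between −0.43 and 0.33 under TMM scaling. With library totals alone Sgk1 stood at −0.48, where the median of all genes stood at −0.49.

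Whether the effect of ALY688 differed between mice with and without LPS was tested as an interaction over all 4 groups, and none of the 9 passed (0% of 13476 genes called). The largest value was that of Dusp1, 0.96 ± 0.46 (unadjusted p = 0.0441, adjusted p = 0.506): its mean went from 102 to 72.1 CPM with ALY688 in mice without LPS and from 186 to 255 in mice with it. Tsc22d3 stood at 0.66 ± 0.36 (adjusted p = 0.506), with means from 197 to 167 and from 146 to 195 CPM. Both values turned negative with scaling by library totals alone, where the median of all genes stood at −0.998. At an unadjusted p under 0.05 there were 1217 genes in all, and DESeq2 called 4, none of the 9 among them.

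Mice of 1 group differed in several of these genes together. In the group with both agents, mice 1 and 3 held the highest levels of Fkbp5 (94.2 and 120.8 CPM), Klf9 (9.28 and 8.06), Ddit4 (38.2 and 36.6) and Dusp1 (436.5 and 303). The other 5 mice stood at most at 63.0, 3.34, 20.6 and 276 CPM for these genes. Nr3c1 was highest in the same pair, at 68.7 and 60.5 CPM against at most 58.6, a narrower gap. The other 4 genes did not follow: mice 1 and 3 ranked 5 and 3 of the group in Sgk1, 1 and 4 in Tsc22d3, 7 and 2 in Zbtb16 and 5 and 2 in Fbxo32. The neutrophil marker sum was 10843 and 9555 CPM in these mice, in a group running from 5788 to 13475. Mouse 3 held the highest T cell marker sum of the group (124 CPM against 68.3 in the lowest), and mouse 1 had a B cell marker sum of 213 CPM, level with the lowest of the group. The globin shares of mice 1 and 3 were 29.4% and 35.8%. The part of these values in the levels was not tested.

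Without LPS, some mice stood out in Tsc22d3 and Ddit4, and others in Dusp1. PBS mice 2 and 3 held 287 and 311 CPM of Tsc22d3, against at most 203 in the other 7, and 31.4 and 35.8 CPM of Ddit4, against at most 15.5. ALY688 mouse 3 was highest of its group in the same pair, at 229 and 33.5 CPM, and in Dusp1, at 102 CPM. In contrast, Fkbp5 in these 3 mice stood at 10.4, 11.3 and 13.4 CPM and Klf9 at 1.56, 1.498 and 1.81, inside the ranges of the other mice of their groups. PBS mice 2 and 3 also had the highest B cell marker sums of their group, 2079 and 2539 CPM, whereas ALY688 mouse 3 held 1406 in a group running from 1078 to 2313. PBS mice 7 and 9 held 166 and 214 CPM of Dusp1, against at most 109 in the other 7. They were also highest of their group in Sgk1 (27.4 and 29.2 CPM) and in the neutrophil marker sum (1986 and 2356 CPM), whose part was not tested. In the LPS group mice 7 and 8 exceeded mice 2 and 6 in Nr3c1, Tsc22d3, Fkbp5, Sgk1, Dusp1 and Klf9. They did so in the neutrophil marker sum as well, at 14369 and 11387 CPM against 7358 and 4230. The platelet marker sum (6227 and 3439 against 2235 and 1251 CPM), the red cell marker sum and the globin share (43.7% and 31.0% against 28.4% and 18.4%) were likewise higher in mice 7 and 8. The T and B cell marker sums were lower in them. The part of these values in those levels was not tested.

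**Figure D3:**
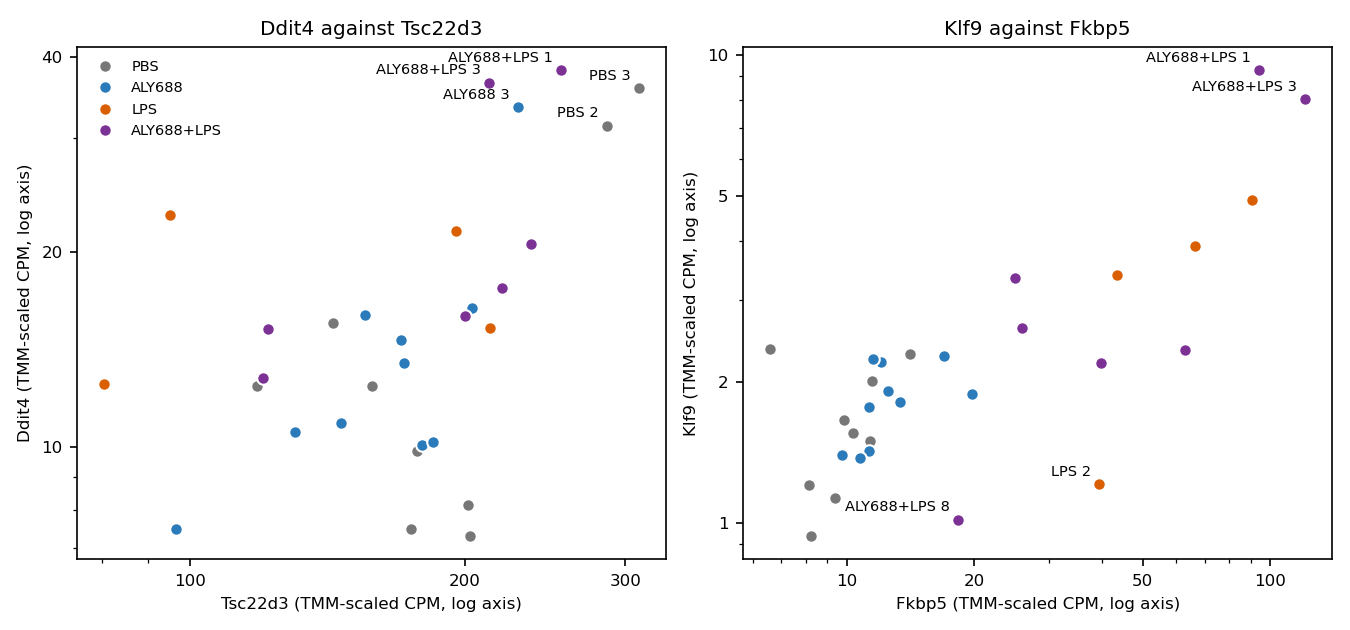
Left, Ddit4 against Tsc22d3, and right, Klf9 against Fkbp5, in TMM-scaled CPM on log axes, 1 point per library coloured by group. Mice 1 and 3 with both agents stand at the top of both panels, while PBS mice 2 and 3 and ALY688 mouse 3 stand apart from the other mice without LPS in the left panel only.

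Compared per kilobase of annotated exon, Tsc22d3 and Dusp1 were the most abundant of the 9. With PBS the mean levels per kilobase were 45.4 CPM for Tsc22d3, 30.9 for Dusp1, 8.89 for Ddit4, 4.73 for Nr3c1 and 4.52 for Sgk1. Fbxo32 and Fkbp5 lay near each other at 1.07 and 1.05, above Zbtb16 at 0.486 and Klf9 at 0.338. With LPS the order changed at both ends. Dusp1 led at 56.3 CPM per kilobase, ahead of Tsc22d3 at 33.7, and Fbxo32 was last at 0.177. Neither Dusp1 nor Tsc22d3 passed in LPS against PBS (edgeR adjusted p = 0.0687 and 0.322), so their change of order is one of means alone. Fkbp5 reached 6.33, close to the receptor at 7.47 and to Sgk1 at 9.23.

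In the order of group means on the CPM scale, neighbours rarely separated. For Sgk1 the groups without LPS (19.6 and 22.2 CPM) were parted from those with it (43.7 and 45.2) by a gap that no mouse bridged. For Fbxo32 the order was LPS, both agents, PBS and ALY688 (1.24, 1.80, 7.45 and 7.84), with such a gap between both agents and PBS. Every other pair of neighbouring groups, for these and the other 7 genes, had ranges that overlapped.

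The genes nearest to 3 of the 9 over the 30 libraries were found by the mean absolute difference of standardised log2 CPM, where 0 is an identical pattern. Nearest to Nr3c1 were Ptprc (0.26), which encodes the pan-leukocyte antigen CD45, Ppp1r12a (0.28), a myosin phosphatase subunit, and Nckap1l (0.29), a haematopoietic actin regulator. The median over 10581 genes was 1.08. Ptprc went from 435 ± 69.5 CPM with PBS to 616 ± 120 with LPS. Among those nearest to Fkbp5 were Map3k3 (0.26), a MAP kinase kinase kinase, and Rnf169 (0.29), with a median over genes of 1.12. Tsc22d3 had no neighbour as close: Txnip, an inhibitor of thioredoxin and itself on the list of glucocorticoid-induced genes, stood at 0.59, Zfp655 at 0.69 and Tmem170 at 0.71. The distances describe these 30 libraries, which share their groups and scaling.

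Other genes that glucocorticoids are known to induce were taken from a list of 28, of which 25 were tested in comparisons across LPS. In ALY688 against PBS only 22 passed the filter on low counts. Mt1, Mertk and Angptl4 passed it only where a group with LPS was included, and all of them rose in both comparisons below. The filter thus favoured a rise for these genes, which are counted with the rest. Against PBS 13 rose, 4 fell and 8 did not pass, with a median log2 fold change of 0.96, where 20.9% of all genes rose and 17.9% fell. Against ALY688 14 rose, 5 fell and 6 did not pass, with a median of 0.98, where 26.4% of all genes rose and 26.6% fell. Cebpb, a transcription factor of the acute phase, rose by 2.71 ± 0.22 (53.9 ± 12.3 to 353 ± 63.5 CPM; adjusted p = 3.45e-07), and by 2.97 ± 0.17 with ALY688 present. Anxa1, the anti-inflammatory annexin, rose by 2.73 ± 0.35 and 3.29 ± 0.15, and Cdkn1a, the cell cycle inhibitor p21, by 3.15 ± 0.30 and 3.95 ± 0.24. Il1r2, the interleukin-1 decoy receptor, rose by 4.56 ± 0.49 and 5.04 ± 0.38 and is also on the neutrophil marker list. Mt1, a metallothionein, rose by 3.92 ± 0.49 against PBS, from 26 counts in 9 libraries to 579 in 4. Mertk, a receptor for dying cells, had 10 counts in 5 of 9 PBS libraries and 1250 in the 4 LPS libraries (adjusted p = 6.75e-07). Against ALY688, Nfkbia, the NF-kB inhibitor, rose by 1.81 ± 0.16 and Bcl6 by 1.07 ± 0.10. The 4 that fell against PBS, named after their values were seen, were Il7r (−2.37), Thbs1 (−2.06), Foxo1 (−1.97) and Cxcr4 (−1.07). Il7r is also on the T cell marker list, all or nearly all of which fell. Per1 (−0.06 ± 0.25 against PBS and 0.31 ± 0.29 against ALY688) did not pass in either comparison. Neither did Txnip (−0.25 ± 0.26 and 0.16 ± 0.12), both also named after their values were seen.

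Of the receptor's chaperones and coregulators 20 were tested. Against PBS 7 rose and none fell, with a median log2 fold change of 0.32, where 38.7% of all genes passed and the median over all genes was −0.04. Against ALY688 8 rose and 1 fell, with a median of 0.09, where 53.0% of all genes passed and their median was −0.05. The share of the list that passed in either direction was thus no higher than that of all genes in either comparison. The calls were mostly rises, however. Of the 20 genes 7 and 8 rose, where 20.9% and 26.4% of all genes rose. None and 1 fell, where 17.9% and 26.6% of all genes fell. Hspa8, the constitutive Hsp70, rose by 1.18 ± 0.25 (208 ± 37.8 to 474 ± 135 CPM; adjusted p = 0.00151) and by 1.14 ± 0.16. Stip1, which passes receptors from Hsp70 to Hsp90, rose by 0.64 ± 0.16 and 0.51 ± 0.10, and the p23 co-chaperone Ptges3 by 0.73 ± 0.20 against PBS. Hsp90aa1, the inducible Hsp90, rose by 0.58 ± 0.21 and 0.75 ± 0.12, and the coactivator Ncoa6 by 0.66 ± 0.17 and 0.37 ± 0.11. Ep300, a histone acetyltransferase, rose by 0.61 ± 0.22 against PBS. Against ALY688, Hsp90ab1 rose by 0.50 ± 0.13 and the Mediator subunit Med1 fell by 0.42 on the log2 scale. The calls of Hspa8, Stip1, Ncoa6, Ptges3, Hsp90aa1 and Ep300 against PBS were lost with the globin covariate. That of Hsp90aa1 was also lost in 7 leave-outs of 1 mouse (PBS mice 1, 2, 3, 7 and 8, LPS mice 2 and 6) and that of Ep300 in 6 (PBS mice 5, 6, 7 and 8, LPS mice 7 and 8). With the replicate block Hsp90aa1 missed the threshold as well (0.65, adjusted p = 0.0622). Against ALY688, library totals alone ended the calls of Stip1 (adjusted p = 0.181), Hsp90ab1 (0.142), Med1 (0.564) and Ncoa6 (0.368). Ncoa6 was also lost there with the globin covariate (0.25, adjusted p = 0.0789), and Hsp90ab1 with the replicate block (0.51, adjusted p = 0.0679).

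Among genes that handle the hormone, 5 of 10 were tested in the comparisons across LPS. Hsd11b1, the enzyme that regenerates active corticosterone inside cells, rose by 1.80 ± 0.22 against PBS (8.01 ± 2.78 to 28.3 ± 3.15 CPM; adjusted p = 1.48e-05) and by 1.45 ± 0.17 against ALY688 (adjusted p = 8.72e-07). H6pd, which supplies its cofactor, rose against PBS (0.67 ± 0.14, adjusted p = 0.00186), a call lost with the globin covariate (0.35, adjusted p = 0.371). Cyp11a1, the first enzyme of steroid synthesis, was low. It fell against ALY688 (−2.50 ± 0.51, adjusted p = 0.000353) and stood at −1.43 ± 0.69 against PBS (adjusted p = 0.110). Cyp11a1 had 180 counts in the 10 ALY688 libraries and 27 in the 7 with both agents. In that comparison it passed the filter on low counts through the mice without LPS, so the filter favoured a fall. The efflux pump gene Abcb1b stood at −0.38 ± 0.21 against ALY688 (adjusted p = 0.132). Of the 5 tested, 2 rose and none fell against PBS, and 1 rose and 1 fell against ALY688, near or below the 38.7% and 53.0% of all genes that passed.

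The clock outputs, a list of 10 with 8 tested, include genes that carry response elements and ones driven by the daily cycle. Against PBS 2 rose and 3 fell, with a median of −0.60, where 20.9% of all genes rose and 17.9% fell. Against ALY688 2 rose and 5 fell, with a median of −1.01, where 26.4% of all genes rose and 26.6% fell. Per2 rose by 1.88 ± 0.40 and 1.83 ± 0.18, and Cry1 by 1.14 ± 0.25 and 0.98 ± 0.16. Dbp fell by 1.69 and 1.58, Arntl by 1.14 and 0.89, and Nr1d2 by 0.93 and 1.26, all on the log2 scale. Tef stood at −0.59 ± 0.26 against PBS (adjusted p = 0.0828) and fell by 1.14 against ALY688 (adjusted p = 0.000116). It passed against PBS without PBS mouse 9 (−0.66, adjusted p = 0.0395), with the globin covariate (−1.88, 0.00108), in DESeq2 (−0.60, 0.0458) and without the libraries of few detected genes (−0.77, 0.0201). Sampling times are not given, so the time of day and LPS cannot be told apart for these genes. With library totals alone Arntl and Dbp lost their call against PBS (−0.04 and −0.58) and Nr1d2 and Tef turned to 0.14 and 0.48, all of them below the median of all genes in that setting. Against ALY688 the same scaling ended the call of Arntl (−0.93, adjusted p = 0.0736). The call of Cry1 against PBS was lost with the globin covariate (0.99, adjusted p = 0.107), and that of Nr1d2 with the replicate block (−0.77, adjusted p = 0.0508).

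**Figure D4:**
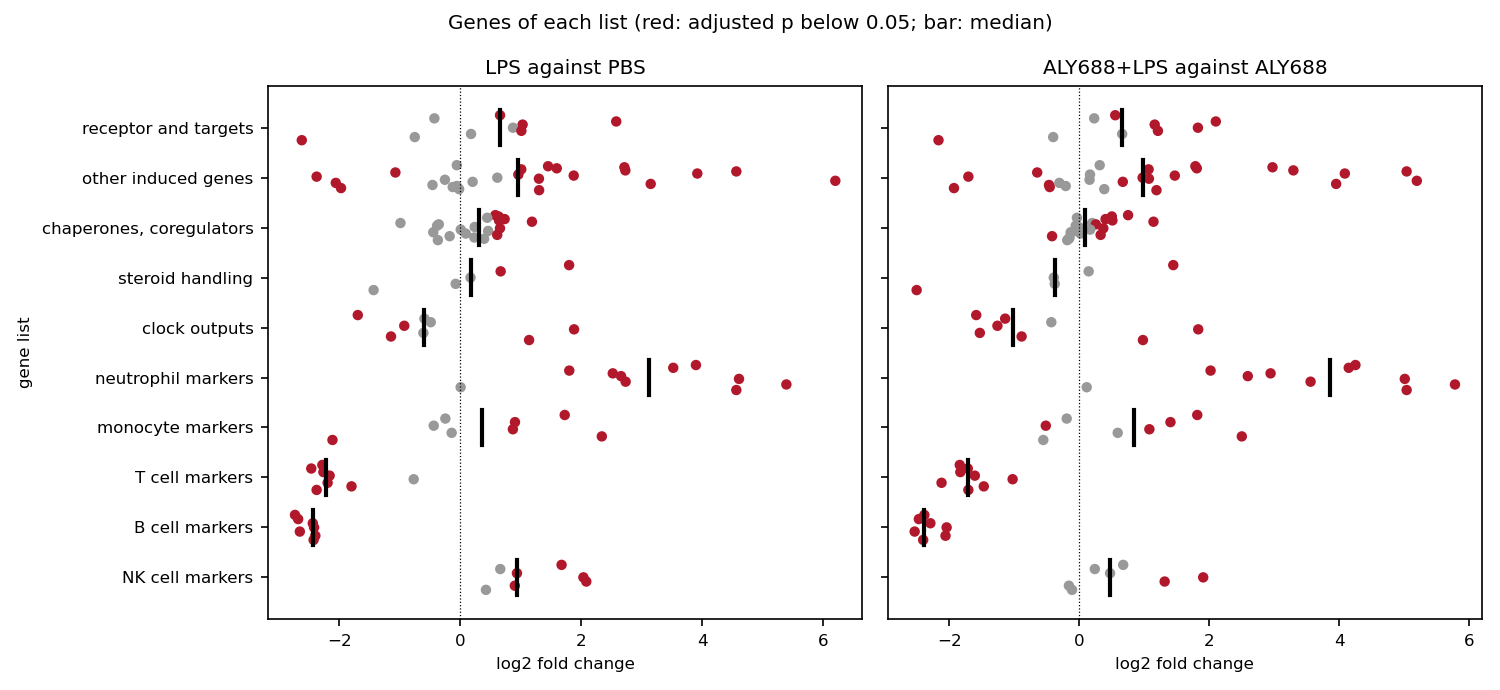
Log2 fold change of each tested gene (points) by list, for LPS against PBS (left) and ALY688+LPS against ALY688 (right), with the list's median as a bar. Red marks an adjusted p below 0.05; the neutrophil markers lie to the right (medians 3.13 and 3.85) and the T and B cell markers to the left, with the receptor, its targets and the other induced genes spread on both sides of 0.

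In the comparisons of ALY688, no gene of these 4 lists passed. Nearest the threshold against PBS were Ncoa1 (−0.46 ± 0.18), Errfi1 (0.55 ± 0.25), Thbs1 (−1.04 ± 0.50) and Cebpb (−0.32 ± 0.16), each at an adjusted p of 0.442. Under LPS H6pd stood at −0.46 ± 0.13 (21.6 ± 2.77 to 15.7 ± 2.11 CPM; adjusted p = 0.913) and Il7r at 0.84 ± 0.46. In the interaction H6pd stood at −0.53 ± 0.20 and Thbs1 at 1.76 ± 0.81, each at an adjusted p of 0.506.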

How the data were processed

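The authors deposited 1 table of unnormalized read counts per mouse. HISAT2 2.0.5 (alignment) and featureCounts 1.5.0-p3 (counting) are named in the submitters' processing notes, and no source used here gives the genome build, annotation or strand setting. Libraries were made from poly-T-selected RNA with random hexamer priming, per the labels' protocols. Counts were at hand for 30 of the 34 samples, without PBS mouse 10 and LPS mice 3, 4 and 5, which are not analysed here. Symbols, coordinates and exon lengths were looked up in GENCODE M21 (GRCm38), where 54409 of 54532 IDs matched. Within groups, each pair of libraries differed by more than sampling noise (chi-square per degree of freedom at least 8.02).

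Counts were filtered with filterByExpr, TMM-scaled and fitted in edgeR 4.0.16 (glmQLFit, robust, and glmQLFTest, two-sided; R 4.3.3), with only the compared groups in each fit and all 4 in the interaction, and Benjamini-Hochberg adjustment over all genes. The scripts were tested on simulated data. SE values are from the F statistic. Depth limits are 3 counts per library and cover counting error alone, as reads had no molecular identifiers. DESeq2 1.42.0 and other settings were alternatives, with each mouse left out in turn (90 fits).

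The genes and lists were chosen with earlier results of these data known. Named are the 9 genes, up to 6 genes with the smallest p per list across LPS (3 for the steroid list and in other comparisons), and 3 nearest genes for Nr3c1, Tsc22d3 and Fkbp5 among named genes of at least 1 CPM, of which 1 is not reported here. Likeness used log2 CPM with a prior count of 2.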

Additional observations from a re-analysis of the deposited data

Results flagged for a closer look

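Of 36 combinations of gene and group, 2 held a mouse far from the others; chance alone marks about 1 in 20. Ddit4 stood at 33.5 CPM in ALY688 mouse 3, and the next highest mouse of that group held 16.4. Without it the log2 fold change of ALY688+LPS against ALY688 was 0.89 (adjusted p = 0.00400, edgeR), where all mice gave 0.66 (adjusted p = 0.0652). Zbtb16 stood at 3.22 CPM in ALY688+LPS mouse 4, from 55 counts, and the next highest held 2.19. That mouse also had the highest B cell marker sum (920.3 CPM) and the lowest neutrophil marker sum (5788 CPM) of its group, whose part was not tested.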

How the results depend on the processing

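The calls of Fkbp5, Sgk1 and Fbxo32 in both comparisons across LPS held under the 8 alternatives and without any single mouse. Lost calls of the other named genes are given with those genes. Depth limits Klf9, Zbtb16 and Fbxo32, with 4, 2 and 9 counts in their poorest libraries. Library totals alone called 3049 genes for ALY688+LPS against ALY688, in place of 6504. For the interaction, DESeq2 called 4 (Tspoap1, Ighg2c, Klra8 and Rps12-ps4) and leave-outs 0 to 1 (Klra8, without ALY688+LPS mouse 1); these were named after their values were seen, and the cause was not tested.

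Mouse numbers are not stated to pair animals. Correlations of same-numbered mice, in their deviations from group means, ran from −0.50 to 0.30. They were not compared with those of differently numbered mice, so pairing was not tested. With the mouse number as a replicate block, 3531 genes passed for LPS against PBS and 4870 for ALY688+LPS against ALY688, and none in the other 3 comparisons. Klf9 then missed the threshold (1.17, adjusted p = 0.0934, and 0.98, adjusted p = 0.0605).

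No called value of the 9 genes changed sign; the sign changes were in values that had not passed, apart from Nr1d2, and their cause was not tested. With library totals alone, in ALY688 against PBS, Tsc22d3 stood at 0.18, Sgk1 at 0.34, Dusp1 at 0.15, Ddit4 at 0.027 and Zbtb16 at 0.38, where the median of all genes stood at 0.50. In ALY688+LPS against LPS, with that median at −0.49, Nr3c1 stood at −0.39, Ddit4 at −0.15, Zbtb16 at −0.22 and Fbxo32 at −0.0077. In LPS against PBS, Tsc22d3 stood at 0.42, Zbtb16 at 0.30, Nr1d2 at 0.14 and Tef at 0.48, below the median of 1.04. In the interaction, Tsc22d3 stood at −0.14, Sgk1 at −0.82, Dusp1 at −0.029, Klf9 at −0.56, Ddit4 at −0.18, Zbtb16 at −0.60 and Fbxo32 at −0.60.

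With the replicate block, Ddit4 stood at 6.1e-05, Zbtb16 at 0.12 and Fbxo32 at −0.027 in ALY688 against PBS. In ALY688+LPS against LPS, Nr3c1 stood at −0.067, Klf9 at −1.03, Ddit4 at −0.18 and Fbxo32 at −0.022, and in the interaction Klf9 at −0.46 and Zbtb16 at −0.17. With the globin covariate, Nr3c1 stood at −0.011, Zbtb16 at 0.0090 and Fbxo32 at −0.018 in ALY688 against PBS, Nr3c1 at −0.027 in ALY688+LPS against LPS, and Ddit4 at −1.22 in LPS against PBS. Nr3c1 in ALY688+LPS against LPS stood at −0.0028 with globin genes left out before scaling and at −0.012 with no filter on low counts. Without the libraries of few detected genes, Fkbp5 stood at 0.18 in that comparison and Ddit4 at −0.10 in LPS against PBS.

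Leaving out single mice turned these values. In ALY688 against PBS the ranges were −0.40 to 0.070 for Ddit4, −0.16 to 0.17 for Zbtb16 and −0.0042 to 0.11 for Fbxo32. In ALY688+LPS against LPS they were −0.11 to 0.12 for Nr3c1, −0.43 to 0.16 for Fkbp5 and −0.19 to 0.10 for Sgk1. In the interaction they were −0.22 to 0.0046 for Nr3c1, −0.00056 to 0.27 for Sgk1 and −0.14 to 0.41 for Klf9.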
